A study of Mus musculus with 48 samples.

Results

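Guanylate-binding proteins and immunity-related GTPases are 2 families of interferon-induced enzymes, and 10 genes were chosen by symbol here: Gbp2, Gbp3, Gbp6, Gbp7, Irgm1, Irgm2, Igtp, Iigp1, Tgtp2 and Irf1. They were 10 of 29801 genes listed, chosen by name with earlier results of these data known and with no threshold on a measured value. Irf1 is not a GTPase but a transcription factor that drives many interferon-induced genes, these GTPases among them. RNA of whole tibiae, bone with its marrow and with adherent muscle removed, came from 12 male C57Bl6J mice, 3 in each of 4 groups: aged CR, aged AL, young CR and young AL. CR mice had 8 weeks of caloric restriction on a micronutrient-fortified NIH-31/NIA diet, with food reduced by 10% in week 1, 20% in week 2 and 40% from week 3, and AL mice ate standard NIH-31 chow freely. At the start aged mice were 65 to 78 weeks and young mice 8 to 12 weeks old by the methods, and 15 to 18 months and 10 weeks by the labels. All mice were housed singly. Some mice of the study had a tibial osteotomy, and the sources used here do not say whether these bones came from such mice.

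Interferon gamma, made mainly by T and NK cells, acts through its receptor and the kinases Jak1 and Jak2, and Irf1 and these GTPases are switched on downstream. Guanylate-binding proteins are large GTPases that assemble on the vacuoles of intracellular microbes and help to open them for the inflammasome. Immunity-related GTPases do similar work in mice: Iigp1 and Tgtp2 load onto the vacuole membrane, while Irgm1, Irgm2 and Igtp sit on the cell's own membranes and hold the others inactive there. Type I interferons reach an overlapping set of genes through a receptor of their own. In bone, interferon gamma is known to act on osteoclast precursors and on marrow stem cells.

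The start regions of these genes are shown because they hold matches to 2 motifs known from interferon-induced genes. Of the 10 genes, 8 had an entry in the RefSeq promoter table (GRCm38.p6), and Gbp6 and Iigp1 had none. The 110 bases upstream of the first listed start are printed on the gene's strand, with matches to GAAANNGAA or TTCNNNGAA in capitals. GAAANNGAA is the core bound by interferon regulatory factors, searched on both strands, so that it reads TTCNNTTTC where it lies on the opposite strand. TTCNNNGAA is the gamma-activated site (GAS) and reads the same on both strands. The windows were chr11:58199446-58199555 (Igtp, plus strand), chr11:58214867-58214976 (Irgm2, plus strand), chr11:49064213-49064322 (Tgtp2, minus strand), chr11:48871421-48871530 (Irgm1, minus strand), chr3:142620553-142620662 (Gbp2, plus strand), chr3:142559934-142560043 (Gbp3, plus strand), chr3:142530226-142530335 (Gbp7, plus strand) and chr11:53769904-53770013 (Irf1, plus strand).
Igtp: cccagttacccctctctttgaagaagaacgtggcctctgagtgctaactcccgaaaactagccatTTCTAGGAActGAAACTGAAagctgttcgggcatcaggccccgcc
Irgm2: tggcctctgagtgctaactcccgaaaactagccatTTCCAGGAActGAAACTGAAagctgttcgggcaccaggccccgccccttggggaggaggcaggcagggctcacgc
Tgtp2: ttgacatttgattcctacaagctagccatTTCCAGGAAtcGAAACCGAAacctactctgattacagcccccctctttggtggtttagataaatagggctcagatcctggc
Irgm1: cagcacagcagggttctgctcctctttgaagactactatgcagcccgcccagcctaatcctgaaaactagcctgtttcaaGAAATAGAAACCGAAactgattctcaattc
Gbp2: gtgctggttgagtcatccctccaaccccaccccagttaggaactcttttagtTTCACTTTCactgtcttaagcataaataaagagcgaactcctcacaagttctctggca
Gbp3: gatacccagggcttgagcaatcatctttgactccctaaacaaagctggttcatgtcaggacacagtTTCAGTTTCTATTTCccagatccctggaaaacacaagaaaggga
Gbp7: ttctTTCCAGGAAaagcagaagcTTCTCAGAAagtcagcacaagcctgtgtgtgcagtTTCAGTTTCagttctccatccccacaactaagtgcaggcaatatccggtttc
Irf1: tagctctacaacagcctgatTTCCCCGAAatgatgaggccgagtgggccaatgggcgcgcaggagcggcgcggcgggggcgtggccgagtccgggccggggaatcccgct

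Among these 8 starts, 7 held GAAANNGAA within the 300 bases of the table, against 8.56% of all 32851 promoters, and 5 held TTCNNNGAA, against 8.3%. Irf1 alone had only the GAS-type motif, at bases -90 to -82 from its start. Gbp2, Gbp3 and Irgm1 had only the IRF-type motif, and in Gbp3 and Irgm1 there were 2 overlapping matches. Gbp7 had 2 GAS-type motifs, from -106 and from -87, and an IRF-type motif from -52. In Igtp, Irgm2 and Tgtp2 the GAS-type motif began exactly 11 bases before a forward IRF-type motif. That spacing, looked for after it had been seen in Igtp, was present in 8 of the 32851 promoters (0.0244%). The 8 were those of Igtp, Irgm2 and Tgtp2 themselves, of Tgtp1 and Gm12185, 2 more immunity-related GTPase genes, and of Adar, Olfr382 and LOC115488470. The upstream regions of Igtp and Irgm2 were near copies, with 78 of 80 aligned bases identical when offset by 30. A match of letters is a description of the sequence and was not tested as a binding site.

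**Figure D1:**
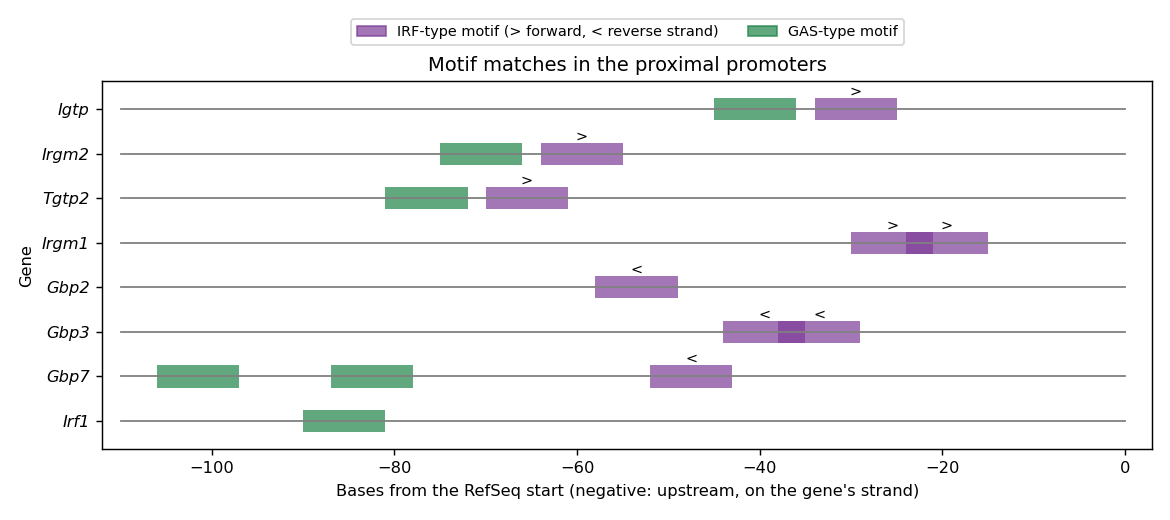
Positions of the motif matches in the 110 bases upstream of 8 starts, as bases from the RefSeq start on the gene's strand. Igtp, Irgm2 and Tgtp2 share a GAS-type motif 11 bases before an IRF-type motif, and Irf1 has only the GAS-type motif.

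The genes lie in clusters (GENCODE vM21, GRCm38; the release used by the authors was not given in the sources). Gbp7, Gbp3 and Gbp2 follow each other on chromosome 3, at 142530342 to 142550149, 142560026 to 142573209 and 142620602 to 142638008. Irgm1 (48861968 to 48871683), Tgtp2 (49057194 to 49064206), Irf1 (53770014 to 53778374), Igtp (58199556 to 58207591) and Irgm2 (58199618 to 58222782) are on chromosome 11. Igtp and Irgm2 overlap on the same strand and Tgtp2 has a near-identical copy, Tgtp1, so their reads can be divided wrongly and these levels are uncertain. The symbol Gbp6 stood on 2 rows of the table. Row ENSMUSG00000104713 (chromosome 5, 105270702 to 105293698) is the one described, and row ENSMUSG00000079362, named Gm43302 in GENCODE and overlapping it, had 0.133 to 0.971 FPKM and did not pass the filter. The second row averaged 0.469 FPKM in aged CR, 0.525 in aged AL, 0.460 in young CR and 0.585 in young AL mice. By these means it was lower with CR in aged mice and lower with age in AL mice.

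Values are FPKM, read fragments scaled to transcript length and to the size of the library, which the authors quantile normalized, so the 12 mice share 1 distribution and the sequencing depth is unknown. The 13590 genes that averaged 1 FPKM or more were tested, and all 10 symbols passed, each with 1 row. Limma was fitted on log2(FPKM + 1), which understates the change of low genes, with Benjamini-Hochberg adjustment over all 13590 genes and a threshold of 0.05. Defining markers of the labelled tissue were present: mean levels were 417 FPKM for Bglap of osteoblasts, 186 FPKM for Ctsk of osteoclasts and 17357 FPKM for S100a9 of neutrophils. Aged CR mouse 5 and aged AL mouse 14 stood farthest from the other mice of their groups over all genes tested, at a root mean square of 0.378 and 0.435 on the log2 scale, against 0.243 to 0.362 for the other 10. They also had the highest levels of the 10 genes, with mean log2 deviations of 0.54 and 0.61 from the 12-mouse mean. Results are given with and without these 2 mice, and leaving them out was chosen after the data were seen.

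All 10 genes were detected in every mouse, and their group means ran in a similar order. Young CR mice had the lowest mean of the 4 groups for 10 of 10 genes. Aged AL mice had the highest mean for 9 of 10, the exception being Gbp6, whose mean was highest in aged CR mice. In those mice Gbp6 had 2.95 FPKM in mouse 5, against 1.56 and 1.16 FPKM in mice 6 and 7. Neighbours in this order mostly overlapped mouse by mouse. In whole bone, fewer cells that express a gene and less RNA per cell cannot be told apart.

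**Figure D2:**
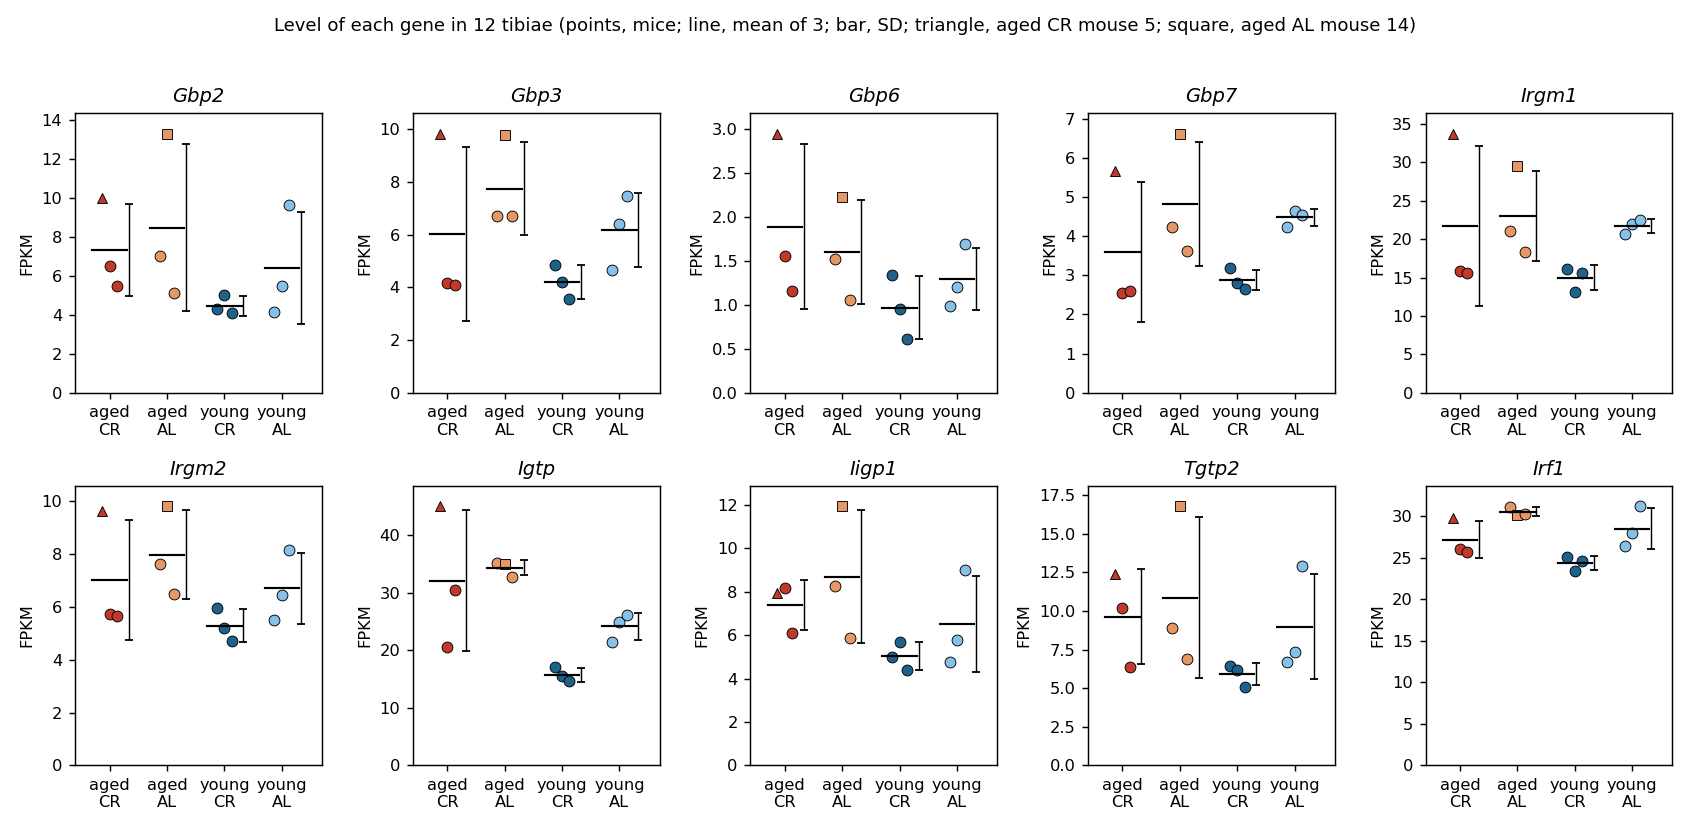
FPKM of the 10 genes in each tibia, by group, with the mean and SD of 3 mice. Young CR mice have the lowest mean in each panel, and aged CR mouse 5 (triangle) and aged AL mouse 14 (square) are the highest mice for 9 of the 10 genes between them.

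The comparison of CR with AL asks whether restriction changes expression in the bone of aged or of young mice. No member passed the test in either age or over both ages, by limma or by the unequal-variance test on FPKM with adjustment. In aged mice 9 of 10 genes had a lower mean in CR (all genes, 51.4%), the exception being Gbp6, with a median of -0.17 (all genes, -0.0044). Irf1 alone had its 3 CR mice all below its 3 AL mice (all genes, 5.33%), and 0 of 10 reached an unadjusted p under 0.05 (all genes, 3.22%). In young mice 10 of 10 genes had a lower mean in CR, against 47.7% of all genes tested, with log2 fold changes between -0.58 and -0.21 and a median of -0.41 (all genes, 0.0082). In 5 of the 10, Igtp, Irf1, Irgm1, Gbp7 and Tgtp2, the groups were apart in that way (all genes, 9.38%). At an unadjusted p under 0.05, 2 were lower, Igtp and Irf1, against 5.24% of all genes. Over both ages 10 of 10 had a lower mean (all genes, 49.2%), with a median of -0.28, and 3, Irf1, Gbp7 and Igtp, were lower at an unadjusted p under 0.05 (all genes, 6.45%). The unequal-variance test gave 0 members at an unadjusted p under 0.05 in aged mice, 3 in young mice and 1 over both ages. For this test the share of all genes at that level was not counted, so these counts have no background beside them. By adjusted p it called 0 genes of all tested in aged mice, 0 in young mice and 4 over both ages. By adjusted p, limma called 0% of genes in aged mice, 0.0662% in young mice and 0.258% over both ages. Single mice moved these medians: in aged mice it was -0.38 without aged CR mouse 5, -0.33 without aged AL mouse 15, -0.11 and -0.06 without aged CR mice 6 and 7 and 0.0016 without aged AL mouse 14, in young mice -0.19 without young AL mouse 11, and over both ages between -0.18 and -0.17 without young AL mouse 11, aged CR mouse 7 or aged AL mouse 14.

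Irf1, the transcription factor of the set, was the steadiest gene. Irf1 had 29.7, 26.1 and 25.6 FPKM in aged CR mice, against 31.1, 30.1 and 30.3 FPKM in aged AL mice. In young CR mice it had 25.0, 23.4 and 24.6 FPKM, against 26.3, 27.9 and 31.1 FPKM in young AL mice. CR mice were thus below AL mice of their age without overlap in both ages, which held for 1 of 10 members and 1.05% of all genes. The log2 fold change for CR over both ages was -0.19 ± 0.06 (SE, n = 6 mice each; limma, adjusted p = 0.178). Its whole range over 12 mice was 1.33-fold, against 2.08- to 4.8-fold for the 9 GTPase genes.

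Igtp, a regulatory immunity-related GTPase that sits on the endoplasmic reticulum, was the only member whose age groups were apart in both diets. Igtp had 45.0, 20.6 and 30.6 FPKM in aged CR mice, against 17.1, 15.6 and 14.7 FPKM in young CR mice. In AL mice it had 35.3, 35.0 and 32.8 FPKM in aged and 21.5, 24.9 and 26.1 FPKM in young mice. Aged mice were above young mice of the same diet in every pair, as were 1.18% of all genes. The log2 fold change for age over both diets was 0.70 ± 0.15 (SE, n = 6 mice each), just outside the threshold (limma, adjusted p = 0.0568). Without aged CR mouse 5 it was 0.57 and passed (adjusted p = 0.0451), and without aged CR mouse 6 it was 0.84 (adjusted p = 0.00346), and over 18 alternatives the adjusted p ran up to 0.151. In young mice CR lay below AL by a log2 fold change of -0.58 ± 0.21 (SE, n = 3 each), with an adjusted p of 0.353 in limma, and the aged groups overlapped.

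Irgm2 overlaps Igtp in the annotation and anchors to Golgi membranes. Irgm2 had 9.64, 5.74 and 5.65 FPKM in aged CR mice, against 7.64, 9.80 and 6.50 FPKM in aged AL mice. Young CR mice had 5.95, 5.21 and 4.71 FPKM, against 5.49, 6.45 and 8.17 FPKM in young AL mice. All groups overlapped with their neighbours, and the log2 fold change for age over both diets was 0.27 ± 0.14 (SE, n = 6 each; limma, adjusted p = 0.371). The log2 ratio of Igtp to Irgm2 lay between 1.84 and 2.43 in aged mice and between 1.52 and 1.97 in young mice.

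Irgm1, which also regulates autophagy and protects blood stem cells in mice, separated the diets in young mice. Irgm1 had 33.7, 15.8 and 15.6 FPKM in aged CR mice, against 21.1, 29.6 and 18.3 FPKM in aged AL mice. In young CR mice it had 16.2, 13.1 and 15.6 FPKM, against 20.7, 22.0 and 22.5 FPKM in young AL mice. Mice 6 and 7 of the aged CR group were thus below all AL mice, at the level of young CR mice, and mouse 5 was the highest of all 12. The log2 fold change was -0.14 ± 0.25 in aged mice and -0.51 ± 0.25 in young mice (SE, n = 3 each; limma, adjusted p = 0.938 in aged and 0.496 in young).

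Iigp1 and Tgtp2, the effector GTPases that coat the vacuole, followed each other. Tgtp2 had 12.4, 10.2 and 6.35 FPKM in aged CR mice, 8.89, 16.8 and 6.91 FPKM in aged AL mice, 6.47, 6.16 and 5.09 FPKM in young CR mice and 6.69, 7.38 and 12.9 FPKM in young AL mice. Only the young groups were apart by diet, and narrowly, 6.47 against 6.69 FPKM. Iigp1 (chromosome 18, 60376027 to 60392634) had 7.92, 8.18 and 6.08 FPKM in aged CR mice, 8.28, 11.9 and 5.88 FPKM in aged AL mice, 5.003, 5.70 and 4.39 FPKM in young CR mice and 4.76, 5.79 and 8.98 FPKM in young AL mice. Its aged CR mice were all above its young CR mice, and the log2 fold change for age over both diets was 0.42 ± 0.17 (SE, n = 6 each; limma, adjusted p = 0.248).

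Among the guanylate-binding proteins, Gbp7 had the lowest estimate for diet in young mice and over both ages, and Gbp3 in aged mice. Gbp7, which in mice supports the oxidative killing of engulfed bacteria, had 5.66, 2.54 and 2.59 FPKM in aged CR mice, against 4.24, 6.62 and 3.62 FPKM in aged AL mice. In young CR mice it had 3.18, 2.81 and 2.66 FPKM, against 4.25, 4.65 and 4.55 FPKM in young AL mice. The young groups were well apart, and mice 6 and 7 of the aged CR group were as low as young CR mice. Over both ages the log2 fold change was -0.44 ± 0.17 (SE, n = 6 each; limma, adjusted p = 0.277).

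Gbp3 gave a like picture with more overlap. Gbp3 had 9.84, 4.16 and 4.09 FPKM in aged CR mice, 6.73, 9.78 and 6.71 FPKM in aged AL mice, 4.84, 4.22 and 3.56 FPKM in young CR mice and 4.67, 6.41 and 7.48 FPKM in young AL mice. Apart from mouse 5, CR mice had at most 4.84 FPKM and AL mice at least 4.67 FPKM. The log2 fold change for CR over both ages was -0.42 ± 0.19 (SE, n = 6 each; limma, adjusted p = 0.361).

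Gbp2, which binds the vacuoles of Toxoplasma in mice, varied more within groups than between them. Gbp2 had 9.97, 6.51 and 5.45 FPKM in aged CR mice, 7.03, 13.3 and 5.10 FPKM in aged AL mice, 4.27, 5.03 and 4.08 FPKM in young CR mice and 4.11, 5.49 and 9.61 FPKM in young AL mice. Gbp6, the member with the lowest level, had 2.95, 1.56 and 1.16 FPKM in aged CR mice, 1.52, 2.23 and 1.06 FPKM in aged AL mice, 1.33, 0.953 and 0.614 FPKM in young CR mice and 0.991, 1.21 and 1.69 FPKM in young AL mice. Neither was apart by diet at either age. For age in CR mice Gbp2 was apart, at a log2 fold change of 0.57 ± 0.33 (SE, n = 3 each; limma, adjusted p = 0.538).

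The comparison of aged with young mice asks what differs in bone with age. No member passed the test over both diets, in CR mice or in AL mice, where 0.758%, 0.361% and 0.0662% of genes were called. The means of 10 of 10 members were higher in aged mice in each of the 3 comparisons, against 44.4% of genes over both diets, 44% in CR mice and 46.5% in AL mice. The median log2 fold change was 0.33 over both diets, 0.45 in CR mice and 0.22 in AL mice, and that of all genes was between -0.02 and -0.01. Without aged CR mouse 5 these medians were 0.19 over both diets and 0.18 in CR mice, and in AL mice the median was 0.04 without aged AL mouse 14, 0.08 without young AL mouse 9, 0.35 without aged AL mouse 15 and 0.38 without young AL mouse 11. Over both diets, 2 members, Igtp and Iigp1, were higher at an unadjusted p under 0.05 (all genes, 6.8%). In CR mice Igtp was (all genes, 5.03%), and 4 members, Igtp, Iigp1, Gbp2 and Irf1, were apart (all genes, 7.9%). In AL mice Igtp alone was higher at that level (all genes, 3.58%) and alone was apart (all genes, 5.59%). The unequal-variance test gave 1 member at an unadjusted p under 0.05 in each of the 3 comparisons, and the share of all genes was not counted. By adjusted p it called 7 genes of all tested over both diets, 0 in CR mice and 0 in AL mice. Markers of several cell types moved with age over both diets too. Of macrophage and monocyte markers, cells known to express these GTPases, 9 of 10 had a higher mean, none called and 6 at an unadjusted p under 0.05, and their summed level was 1052 to 1568 FPKM in aged CR mice, 971 to 1409 FPKM in aged AL mice, 935 to 1010 FPKM in young CR mice and 867 to 1057 FPKM in young AL mice. Skeletal muscle markers had a higher mean in 5 of 5, with a median log2 fold change of 0.79 and 0 at an unadjusted p under 0.05. Means were lower for 11 of 11 osteoblast and osteocyte markers (6 at an unadjusted p under 0.05), 10 of 10 B cell markers (5) and 10 of 10 neutrophil markers (3), none called. At that level the share of all genes was 6.8% for higher means over both diets and was not counted for lower means. T and NK cell markers had a higher mean in 7 of 11, with a median log2 fold change of 0.26 and none called. Of these 7, 5 reached an unadjusted p under 0.05, as did 1 of the 4 with a lower mean. Endothelial markers had a higher mean in 6 of 8, and 1 of these was called (limma, adjusted p = 0.0487). The part of these cells in the age result was not tested.

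**Figure D3:**
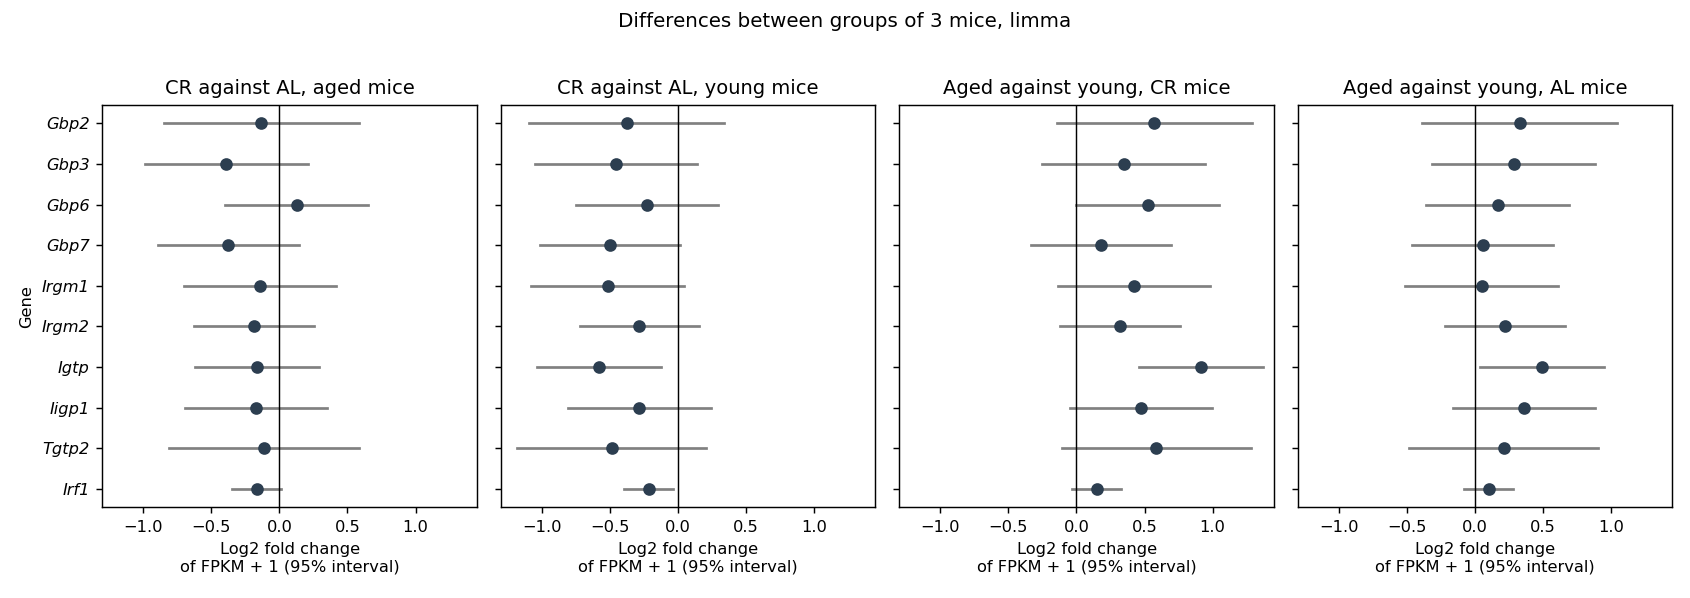
Log2 fold change of FPKM + 1 with its 95% interval for each gene, for CR against AL in aged and in young mice and for aged against young in CR and in AL mice (limma, 3 mice a group). Means were lower with CR for 9 of 10 genes in aged and 10 of 10 in young mice, and higher with age for 10 of 10 in both diets, with most intervals crossing 0.

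The question whether restriction acts differently in aged and in young bone is the difference of the CR effects. It was positive for 10 of 10 members, that is, the CR estimate was less negative in aged mice, with log2 values between 0.05 and 0.42. No member passed (limma, adjusted p = 0.999 for each; smallest unadjusted p, 0.18), 0% of genes were called, and 4.23% of genes reached an unadjusted p under 0.05. For Igtp the 95% interval of the difference was -0.22 to 1.06, which holds 0 as well as values larger than either CR estimate. The median over members was 0.18, and it was 0.01 without aged AL mouse 15, 0.02 without aged CR mouse 5 and 0.05 without young AL mouse 11, and 0.39 without aged AL mouse 14.

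The members moved together from mouse to mouse. Over the 12 mice the Pearson r between members had a median of 0.80 over 45 pairs, from 0.59 for Gbp7 with Iigp1 to 0.97 for Gbp3 with Irgm2. For deviations from the group means, which leave out diet and age, the median was still 0.75, and it was lowest for Igtp with Iigp1, at 0.17. All points share the same libraries. Aged CR mouse 5 was the highest mouse for 4 members, aged AL mouse 14 for 5 and young AL mouse 11 for Irf1, while young CR mouse 3 was the lowest for 7. Each of mice 5, 14, 11 and 13 was above the 12-mouse mean for 10 of 10 members, and each young CR mouse was above it for 0.

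**Figure D4:**
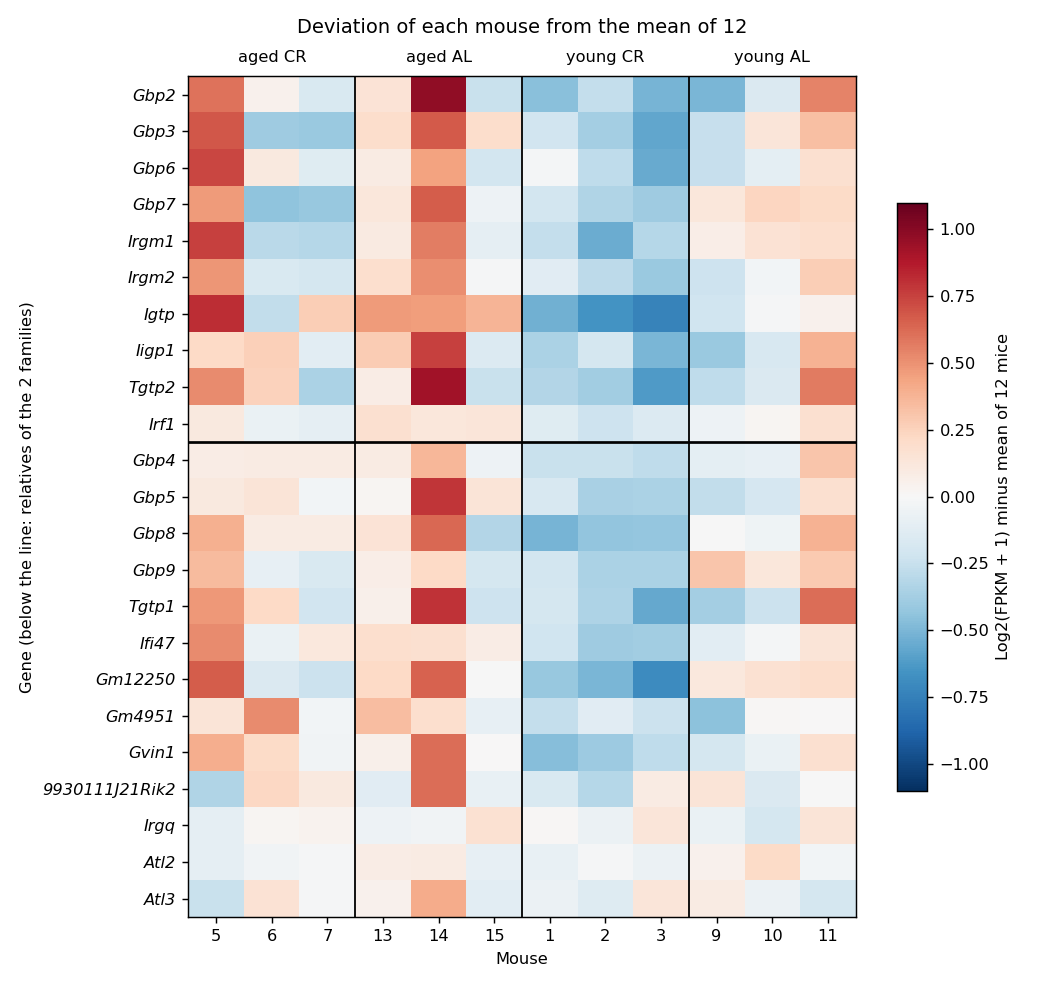
Deviation of log2(FPKM + 1) from the mean of 12 mice for the 10 genes (above the line) and 13 relatives. Aged CR mouse 5 and aged AL mouse 14 are above the mean for 10 of 10 genes and young CR mice below it. Irgq, Atl2 and Atl3 do not follow, and 9930111J21Rik2 is high in mouse 14 (3.41 FPKM) but lowest in mouse 5 (1.29 FPKM).

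The 2 high aged mice shared some other high genes and differed in others. In aged CR mouse 5 the members were above the other 2 mice of the group by a median of 0.71 on the log2 scale, and the 29 type I interferon response genes tested were above by 1.605, with 29 of 29 higher. The other GTPases of the families were above by only 0.05 there, with 7 of 13 higher, and other interferon gamma targets by 0.39. Oas2, which senses viral double-stranded RNA, had 27.6 FPKM in mouse 5, against 0.805 to 6.16 FPKM in the other 11 mice. Isg15, the ubiquitin-like modifier induced by type I interferon, had 196 FPKM there, against 35.3 to 127 FPKM in the others. In aged AL mouse 14 the members were above the rest of the group by a median of 0.53 and the other GTPases of the families by 0.44. The type I genes were above by 0.23 in that mouse and other interferon gamma targets by 0.11. Macrophage and monocyte markers had a mean log2 deviation of 0.40 in mouse 5, against 0.13 and 0.10 in mice 6 and 7. It was 0.39 in mouse 14, against -0.16 and -0.03 in mice 13 and 15. By summed level, mouse 5 had 1568 FPKM, against 1055 and 1052 FPKM in mice 6 and 7. Mouse 14 had 1377 FPKM, between mouse 13 at 971 FPKM and mouse 15 at 1409 FPKM. Over all genes tested the medians were -0.01 for mouse 5 and 0.02 for mouse 14. In mouse 5 neutrophil markers summed to 30143 FPKM, against 40525 and 39305 FPKM in mice 6 and 7. Adipocyte markers summed to 240 FPKM in mouse 5, against 465 and 421 FPKM in mice 6 and 7. Osteoclast markers summed to 391 FPKM there, against 783 and 653 FPKM, and erythroid markers to 1207 FPKM, against 2066 and 1862 FPKM. In mouse 14 neutrophil markers summed to 38019 FPKM, against 42261 and 28340 FPKM in mice 13 and 15. Their mean log2 deviation was -0.49 in mouse 14, against 0.09 and -0.10 in mice 13 and 15. In mouse 14 B cell markers summed to 83.3 FPKM, against 239 and 313 FPKM in mice 13 and 15, and adipocyte markers to 85.6 FPKM, against 235 and 171 FPKM. Osteoblast and osteocyte markers summed to 361 FPKM in mouse 14, against 1495 and 926 FPKM, and skeletal muscle markers to 800 FPKM, against 246 and 305 FPKM. The part of these cells was not tested.

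**Figure D5:**
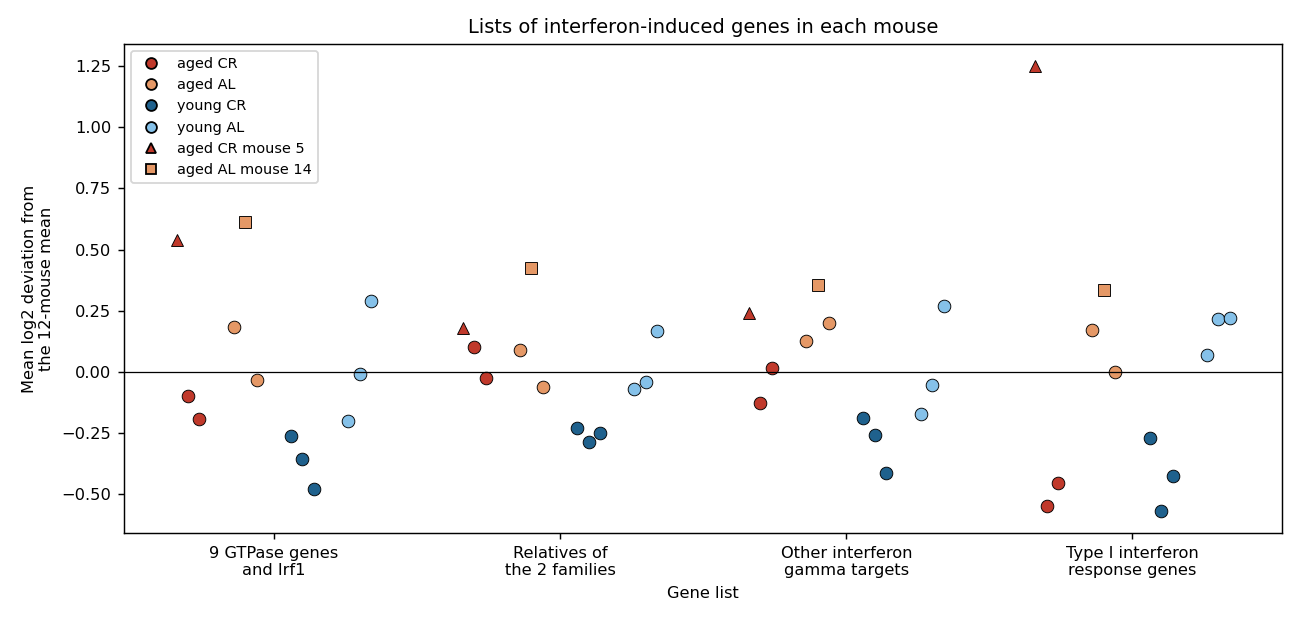
Mean log2 deviation from the 12-mouse mean of 4 gene lists in each mouse. The members are highest in aged AL mouse 14 (square, 0.61) and aged CR mouse 5 (triangle, 0.54), while the type I interferon list is at 1.25 in mouse 5 and at 0.34 in mouse 14.

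Without mice 5 and 14 more members were called for diet, with smaller standard errors. These 2 mice were the highest for the members, so leaving them out narrows the members' spread. The calls in this fit are thus drawn from the values that set these mice apart and are no further support. In that fit 4 members were called lower with CR over both ages, Gbp3, Gbp7, Igtp and Irgm1, when 3.25% of all genes were called, and the median was -0.25, against -0.28 with all mice. In young mice 2 were called, Gbp7 and Irgm1, when 1.18% of all genes were called, and their values are the same as with all mice while their standard errors were 0.09 and 0.09, against 0.23 and 0.25. In aged mice 7 of 10 had a lower mean with CR, with a median of -0.25 and none called. For age over both diets Igtp alone was called, when 1.61% of all genes were called, and 8 of 10 members had a higher mean, with a median log2 fold change of 0.12. The aged groups then hold 2 mice each.

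The wider pathway was counted from lists chosen with earlier results of these data known. Of 23 other genes of the GTPase families 13 were tested and limma called none in any comparison. For CR in young mice 11 of 13 were lower (all genes, 47.7%), with a median log2 fold change of -0.29. Of these, 5 had an unadjusted p under 0.05 (all genes, 5.24%), led by Gbp9 (-0.54), Gm12250 (-0.70), Gbp8 (-0.57) and Ifi47 (-0.33). With age over both diets 12 of 13 were higher (all genes, 44.4%), with a median of 0.33. Of these, 7 had an unadjusted p under 0.05 (all genes, 6.8%). Without mice 5 and 14 the family genes gave 2 calls for CR in young mice and 1 over both ages. In that fit 1.18% and 3.25% of all genes were called, and 6 of 13 family genes were lower with CR in aged mice. The remaining 10 averaged under 1 FPKM, and Gbp2b was listed at 0 in 8 of 12 mice.

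Of the interferon gamma signalling genes, 14 of 15 were tested, Irf1 among them, and limma called none in any comparison, with 0 to 2 at an unadjusted p under 0.05 in each direction. Ifng itself, the ligand, had 0 to 0.388 FPKM and did not pass the filter. The median log2 fold change was -0.10 for CR over both ages and 0.08 for age over both diets. Irf8, a myeloid partner of Irf1, had 30.5, 27.3 and 27.5 FPKM in aged CR mice, against 33.1, 31.5 and 35.3 FPKM in aged AL mice, and 29.3, 27.8 and 28.3 FPKM in young CR mice, against 34.9, 31.2 and 36.3 FPKM in young AL mice. Its CR mice were below AL mice of their age without overlap, at a log2 fold change of -0.24 ± 0.06 over both ages (SE, n = 6 each; limma, adjusted p = 0.097).

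Other interferon gamma targets behaved like the members. Of 30 listed, 27 were tested and limma called none. At an unadjusted p under 0.05, 0 were lower for CR in aged mice (all genes, 3.22%) and 7 in young mice (all genes, 5.24%). For age over both diets 10 were higher at that level (all genes, 6.8%). Without mouse 5, 2 were called for CR over both ages, when 1.64% of all genes were called. For CR in aged mice 25 of 27 means were lower (all genes, 51.4%), with a median of -0.18. For CR in young mice 26 of 27 were lower (all genes, 47.7%), with a median of -0.27. With age 25 of 27 were higher over both diets (all genes, 44.4%), with a median of 0.29. Genes of class I antigen presentation led: for CR over both ages Tap1, the peptide transporter, had a log2 fold change of -0.53 ± 0.12 and B2m, the class I light chain, of -0.44 ± 0.11 (SE, n = 6 each; limma, adjusted p = 0.0868 and 0.0972). H2-K1, a class I heavy chain, had -0.51 for CR in young mice and 0.57 for age in CR mice (limma, adjusted p = 0.182 and 0.0847).

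Of 30 type I interferon response genes 29 were tested. With CR in young mice 29 of 29 means were lower (all genes, 47.7%), with a median of -0.50. Limma called none, and 4 were lower at an unadjusted p under 0.05 (all genes, 5.24%). The summed level was 324 to 388 FPKM in young CR mice, against 449 to 511 FPKM in young AL mice. In aged mice it was 1187 FPKM in CR mouse 5 and 313 and 343 FPKM in CR mice 6 and 7, against 441 to 550 FPKM in AL mice. Apart from mouse 5, the CR mice were thus below every AL mouse. With age 29 of 29 means were higher in CR mice and 13 of 29 in AL mice, none called, with 2 and 0 at an unadjusted p under 0.05. These counts turned on mouse 5: without it 8 of 29 means were higher with age in CR mice, with a median of -0.14, and 9 of 29 over both diets. For CR in aged mice 23 of 29 means were lower with all mice (all genes, 51.4%), with a median of -0.11. Without mouse 5 it was 28 of 29, with a median of -0.60 and 2 called, when 0.0515% of all genes were called. Without it limma called 4 of 29 for CR in young mice and 14 of 29 over both ages, when 0.191% and 1.64% of all genes were called.

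Genes that act beside the GTPases were mixed. For the 20 genes of vacuole targeting and lipid anchors the median log2 fold change was 0.05 for CR and -0.01 for age, and limma called none, with 4 and 1 at an unadjusted p under 0.05. The strongest by p for CR over both ages were Gabarapl1 (0.19), Map1lc3b (0.23) and Map1lc3a (0.31), of the lipid-anchored proteins that guide these GTPases, and Ulk1 (-0.27), a kinase that starts autophagy. Of 12 inflammasome genes 11 were tested and limma called none, with 1 to 2 at an unadjusted p under 0.05 in each comparison of diet or age. The counts at that level for these 2 lists take both directions together, and the share of all genes on that basis was not counted. Inflammasome means were lower with CR in 9 of 11 over both ages, with a median of -0.14, and higher with age in 7 of 11, with a median of 0.04, and without mouse 5 in 5 of 11. Casp4, the caspase that senses the lipopolysaccharide freed by guanylate-binding proteins, had a log2 fold change of 0.55 ± 0.12 for age over both diets (SE, n = 6 each; limma, adjusted p = 0.0751). Il18, an inducer of interferon gamma, ran the other way with diet, at 0.58 ± 0.16 for CR in aged mice (SE, n = 3 each; limma, adjusted p = 0.406).

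Other cell markers moved with diet as well. For CR over both ages 6 of 6 adipocyte markers tested had a higher mean, 2 of them called, with a median log2 fold change of 1.23. Of B cell markers 10 of 10 had a lower mean with CR over both ages, none called and 4 at an unadjusted p under 0.05, with a median of -0.55, and their sum was 163 to 218 FPKM in young CR mice, against 288 to 353 FPKM in young AL mice. T and NK cell markers, the cells that make interferon gamma, had a higher mean in young CR mice for 11 of 11 tested. Their median was 0.20, with none called and 0 at an unadjusted p under 0.05. Over both ages 10 of 11 had a higher mean with CR, with a median of 0.18 and none called. Of these, 3 had an unadjusted p under 0.05. In aged mice 8 of 11 had a higher mean with CR, 1 of them at that level and none called. Macrophage and monocyte markers, unlike the members, had a higher mean with CR over both ages in 8 of 10. Their median was 0.16 and none was called. Only 2 of these 8 reached an unadjusted p under 0.05, as did 1 of the 2 with a lower mean. Osteoclast markers had a higher mean in 4 of 4 and endothelial markers in 7 of 8, with 4 each at an unadjusted p under 0.05 and none called. At that level 6.45% of all genes were lower with CR over both ages, and the share higher was not counted. The part of these cells in the diet result was not tested.

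By a fixed measure, the genes most like the members were other interferon-induced genes. Each of 13578 other genes was ranked by its Pearson r over 12 mice with the mean z-score of the 10 members. Among the 10 highest were Phf11b (0.95), Gm12250 (0.94), Parp14 (0.94), Cxcl10 (0.92), H2-D1 (0.92), Ifit3 (0.92), Tmem173 (0.92), Ly6i (0.92) and B2m (0.92). For deviations from group means r stayed between 0.85 and 0.97 for these 9. The 3 lowest were Parva (-0.91), Snrk (-0.90) and Josd2 (-0.90). The median r was 0.82 for the other GTPases of the families, 0.76 for type I genes, 0.67 for other interferon gamma targets, 0.28 for interferon gamma signalling, -0.14 for vacuole targeting and -0.05 for all genes. These are descriptions over 12 mice that share libraries and 2 high mice.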

How the data were processed

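RNA of whole tibiae of 12 mice was sequenced by the authors from stranded mRNA libraries. Read quality was checked (FastQC 0.11.8, MultiQC 1.6), adapters were removed (Trim Galore 0.5.0), and alignment was to mm10 (STAR 2.6.1). They estimated FPKM with StringTie 2.1.3b and quantile normalized the deposited FPKM values in R 4.1.1. The labels list 48 libraries, 4 technical repeats a mouse. The table has 1 column per mouse; the way repeats were merged was not given. Each mouse counted once. Depth is unknown, so precision is the spread between mice.

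FPKM were taken as log2(FPKM + 1) for genes averaging 1 FPKM or more. A model of 4 group means was run with limma 3.58.1 under R 4.3.3, using a trend in the prior variance and Benjamini-Hochberg adjustment at 0.05 for each of 7 comparisons. The fit was tested on simulated data. Because 3 against 3 mice allow no exact p below 0.1, limma's p-values rest on normal log2 values. Groups were called apart when no mouse of one overlapped the other; over both ages or diets, when apart in each. List levels by mouse are mean log2 deviations from the 12-mouse mean of each gene.

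All 10 members were named, with up to 4 genes per list by smallest p and the 10 most and 3 least correlated genes; 1 gene of these is not reported here, and Oas2 and Isg15 were picked after their values were seen. The members and lists were chosen with earlier results of these data known. Figures were drawn with matplotlib 3.10.9. Alternatives were a pseudocount of 0.1, no filter, a mean of at least 5 FPKM, size-factor scaling, a quality weight per mouse, a fit of the 2 groups alone, the study's unequal-variance test on FPKM, unadjusted p and each mouse left out.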

Additional observations from a re-analysis of the deposited data

How the results depend on the processing

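No member passed the threshold in any comparison with a pseudocount of 0.1, no filter, a mean of at least 5 FPKM (8 members left), size-factor scaling, a fit of the 2 groups alone or the unequal-variance test on FPKM. With a quality weight per mouse, 2 members were called for CR over both ages (Gbp7 and Irf1), 1 (Igtp) for age over both diets and 1 (Igtp) for age in CR mice, when 6.79%, 13.2% and 12.6% of all genes were called. By unadjusted p under 0.05 the counts were 2 for CR in young mice, 3 for CR over both ages, 2 for age over both diets and 1 each for age in AL and in CR mice. With 1 mouse left out the counts ran from 0 to 2 for CR over both ages (Gbp7 and Igtp, without aged CR mouse 5, all genes 1.64%), from 0 to 1 for age over both diets (Igtp, without aged CR mouse 5, all genes 0.405%, or mouse 6, all genes 1.53%) and from 0 to 1 for age in CR mice (Igtp, without aged CR mouse 6, all genes 1.16%). Without aged CR mouse 5 and aged AL mouse 14 the counts were 2 for CR in young mice and 4 over both ages. For age over both diets the count was 1. In that fit 1.18%, 3.25% and 1.61% of all genes were called. These 2 mice were chosen after the data were seen and were the highest for the members.

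The median log2 fold change of the members kept its sign in every comparison but 1. For CR in aged mice it ran from -0.38 to 0.0016 with 1 mouse left out; the lower value leaves out aged CR mouse 5, the upper aged AL mouse 14. For age over both diets it ran from 0.19 to 0.42, and for CR in young mice from -0.54 to -0.19. Of 1286 values of single members under all alternatives, 58 changed sign without being called in either fit, by at most 0.30 from 0, and 21 of these were for the difference of the CR effects. No paired analysis was possible because the replicate numbers shared in the labels mark technical repeats of 1 mouse, and the mouse numbers differ between groups. Depth sets no limit that can be computed from FPKM, and 3 against 3 mice allow no exact p below 0.1.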
